A study of Mus musculus with 7 samples.

Results

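The Dlk1-Dio3 region is an imprinted stretch of mouse chromosome 12, and its 6 genes Dlk1, Meg3, Rtl1, Rian, Mirg and Dio3 are described here in the gastrocnemius of growing mice, a calf muscle in which fast fibers prevail. The genes were taken by symbol from the deposited table of 49568 symbols, and all 6 were in it. The mice were C57Bl6/J males aged 4 weeks (2 libraries), 6 weeks (2 libraries) or 8 weeks (3 libraries). Total RNA was sequenced after removal of ribosomal RNA, with a separate library for every mouse. The labels name no transgene, allele or treatment. The 8-week libraries alone carry Ctl in their titles, so that a difference in origin or treatment cannot be told apart from the difference in age. The paper uses Ctl for CreER-negative littermates in its tamoxifen experiments. It does not say whether the sequenced mice were of that kind. The depth was 30836057 to 41784144 counts, of which between 25.1% and 37.4% belonged to mt-Rnr2, a ribosomal RNA of mitochondria. The 7 muscle fiber markers, Acta1, Ckm and fast myosins among them, summed to 62087 and 67515 CPM at 4 weeks, 66913 and 67437 CPM at 6 weeks, and 71602 to 82142 CPM at 8 weeks, and each of the 7 was detected. CPM are counts for each 1000000 counts of the library, whose total was scaled by TMM factors.

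Imprinted genes are transcribed from only 1 parental copy. In this region the protein-coding genes Dlk1, Rtl1 and Dio3 are transcribed from the paternal chromosome, and the noncoding RNAs Meg3, Rian and Mirg from the maternal chromosome, under a control element between Dlk1 and Meg3 that carries DNA methylation on the paternal copy. Rian is the host of many small nucleolar RNAs and Mirg of many miRNAs, and the noncoding genes lie in a row on 1 strand. The region is known for high levels in the embryo and placenta and for falling levels after birth in many tissues, and in muscle Dlk1 and the miRNAs have been linked to growth and to satellite cells, the stem cells of muscle. Counts per gene do not separate the parental copies.

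In the GENCODE M21 annotation of GRCm38, 828.3 kb separate the start of Dlk1 from the end of Dio3. Dlk1 (ENSMUSG00000040856.17) lies at chr12:109452823-109463336, Meg3 (ENSMUSG00000021268.17) at chr12:109541001-109571726, Rian (ENSMUSG00000097451.10) at chr12:109603940-109661716, Mirg (ENSMUSG00000097391.8) at chr12:109729764-109749460 and Dio3 (ENSMUSG00000075707.5) at chr12:110279068-110281097, all on the plus strand. Rtl1 (ENSMUSG00000085925.3) lies at chr12:109589193-109600330 on the minus strand, between Meg3 and Rian. With 10 kb added on each side, the window held 117 annotated gene names, of which 104 had a row in the count table. Genes of the plus strand had 17406 counts in the 7 libraries together and genes of the minus strand 8. The 6 genes together took 83.8% to 87.6% of the window's counts in each library. Reads had been counted by strand, and a read in exons of 2 genes on the same strand was given to neither.

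**Figure D1:**
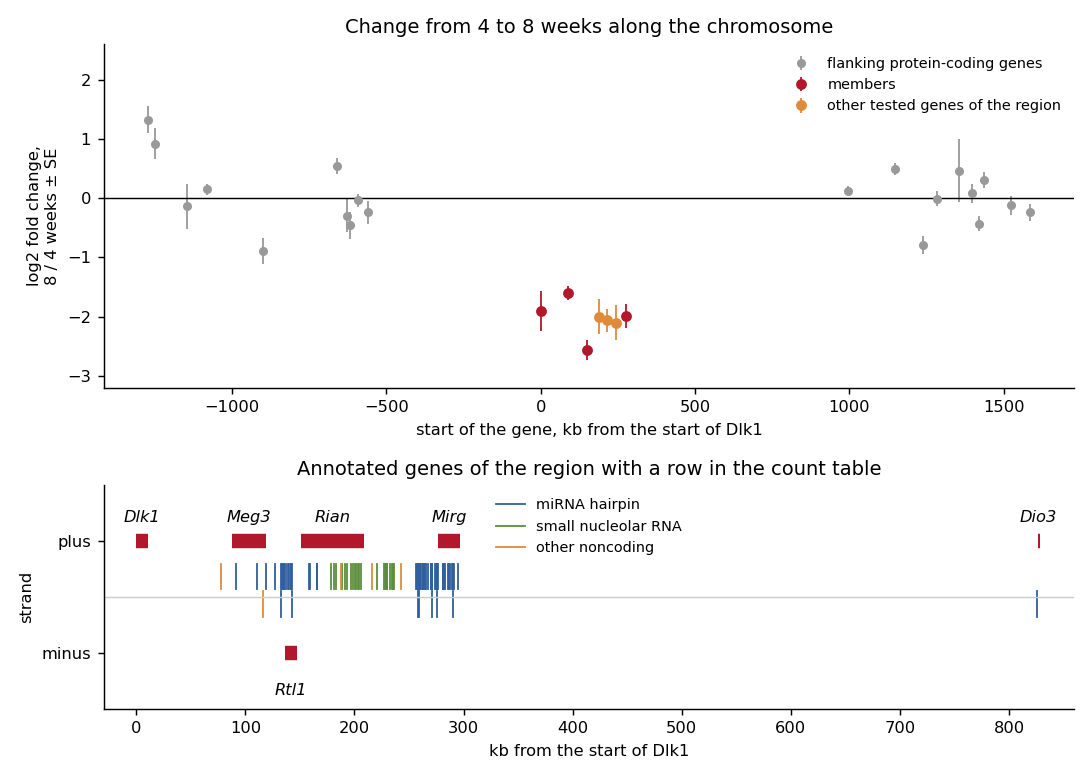
The upper plot gives the log2 fold change of 8 against 4 weeks ± SE for each tested gene by the distance of its start from the start of Dlk1 in kb, for the members, the other tested genes of the region and the 10 nearest tested protein-coding genes on each side. The members and the other tested genes of the region lie between −2.57 and −1.60, and the flanking genes between −0.89 and 1.32. The lower plot maps the genes of the region by strand.

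Of the 6 genes, 4 had enough counts for a test (Dlk1, Meg3, Rian and Mirg), since Rtl1 and Dio3 did not pass the filter on low counts. Between 4 and 6 weeks Meg3, Rian and Mirg fell, and between 4 and 8 weeks all 4 fell, by 3.03-fold for Meg3 up to 5.94-fold for Rian. No member differed between 6 and 8 weeks at an adjusted p under 0.05 in edgeR's quasi-likelihood test. P-values were adjusted over all 14976 genes tested by the Benjamini-Hochberg method. In whole muscle, fewer cells of a type and less RNA per cell cannot be told apart.

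**Figure D2:**
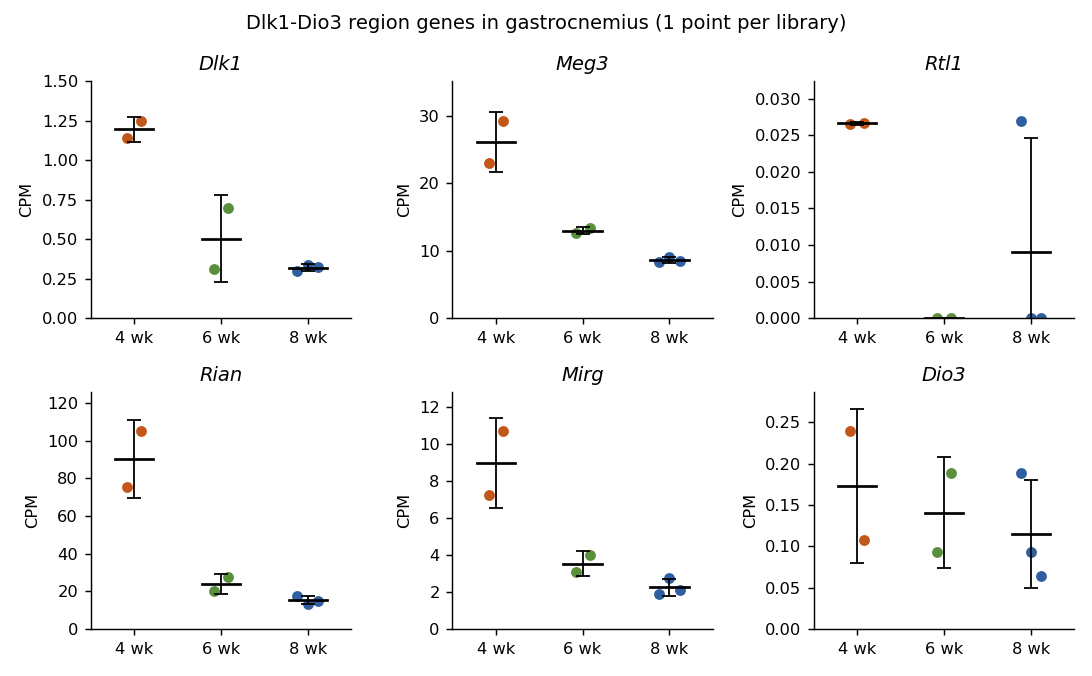
Each point is 1 library, and the vertical axes give CPM on a separate scale for each gene. Horizontal lines mark the mean and bars the SD over the 2, 2 and 3 libraries of 4, 6 and 8 weeks. For Dlk1, Meg3, Rian and Mirg both 4-week libraries lie above all others, and the share of all genes tested with this order was not counted. Dio3 overlaps between all ages, and Rtl1 has at most 1 count per library.

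Rian, a long noncoding RNA that carries small nucleolar RNAs in its introns, had the highest level of the members per length. It had 75.5 and 105.0 CPM at 4 weeks, 20.3 and 27.5 CPM at 6 weeks, and 17.4, 13.3 and 14.8 CPM at 8 weeks. Both 4-week libraries were high, the 6-week libraries were intermediate, and no 2 ages overlapped. With 2 or 3 libraries per age, such separation is easily reached. Its share over all genes was not counted, here or for the genes below. The means were 90.3 ± 20.9, 23.9 ± 5.07 and 15.2 ± 2.07 CPM (SD). At 6 against 4 weeks Rian fell 3.77-fold (−1.91 ± 0.189 on the log2 scale, SE; adjusted p=0.000986 in edgeR). Its value at 8 against 4 weeks was −2.57 ± 0.168 (adjusted p=2.56e-05), or 5.94-fold lower. The raw counts behind these levels were 2844 and 3938 at 4 weeks, 657 and 1026 at 6 weeks, and 645, 432 and 462 at 8 weeks.

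Meg3, also known as Gtl2, is the first of the noncoding genes, and its start lies near the methylated control elements. It had 23.0 and 29.3 CPM at 4 weeks, 12.6 and 13.4 CPM at 6 weeks, and 8.36, 9.06 and 8.47 CPM at 8 weeks. The libraries were close together at 6 and at 8 weeks, while the second 4-week library stood above the first. The 3 ages did not overlap. The log2 fold change was −1.01 ± 0.134 (adjusted p=0.00394 in edgeR) at 6 against 4 weeks and −1.60 ± 0.121 (adjusted p=4.76e-05) at 8 against 4 weeks. Meg3 was 2.01-fold lower at 6 weeks and 3.03-fold lower at 8 weeks than at 4 weeks.

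Mirg, the noncoding gene at the far end of the miRNA cluster, had 7.25 and 10.7 CPM at 4 weeks, 3.06 and 4.02 CPM at 6 weeks, and 1.91, 2.77 and 2.09 CPM at 8 weeks. As for Rian and Meg3, the second 4-week library stood above the first, and the ages did not overlap. The log2 fold change was −1.33 ± 0.229 (adjusted p=0.0102 in edgeR) at 6 against 4 weeks and −1.99 ± 0.21 (adjusted p=0.00026) at 8 against 4 weeks.

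Dlk1 encodes a transmembrane protein with EGF-like repeats, related to the Notch ligands and known as a brake on fat cell formation. It was scarce, with 43 and 47 counts at 4 weeks, 10 and 26 counts at 6 weeks, and 11, 11 and 10 counts at 8 weeks. These correspond to 1.14 and 1.25 CPM at 4 weeks, 0.31 and 0.697 CPM at 6 weeks, and 0.297, 0.339 and 0.321 CPM at 8 weeks. The 4-week libraries were above all others, and the 6-week libraries lay apart, with the lower of them within the range of the 8-week libraries. At 8 against 4 weeks Dlk1 fell 3.74-fold (−1.90 ± 0.338 on the log2 scale; adjusted p=0.00355 in edgeR). At 6 against 4 weeks the value was −1.22 ± 0.347 with an adjusted p of 0.0584, and it rested on single libraries. It was −0.77 without 6 weeks replicate 1 (adjusted p=0.36) and −1.94 without 6 weeks replicate 2 (adjusted p=0.0474), and the adjusted p without 4 weeks replicate 1 or 2 was 0.158 or 0.256.

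Dio3 encodes the deiodinase that inactivates thyroid hormone, and it is a single-exon gene. It had 9 and 4 counts at 4 weeks, 3 and 7 counts at 6 weeks, and 7, 3 and 2 counts at 8 weeks, and all ages overlapped. Over the libraries of an age the level was 0.173 CPM at 4 weeks (exact Poisson 95% interval 0.0921 to 0.296), 0.144 CPM at 6 weeks (0.0689 to 0.264) and 0.119 CPM at 8 weeks (0.0616 to 0.208). The intervals cover counting error only. A difference in Dio3 between ages was not detectable at this depth, and with no filter on low counts edgeR gave an adjusted p of 0.919 at 6 against 4 weeks and 0.649 at 8 against 4 weeks.

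Rtl1, a gene derived from a retrotransposon and needed for the placenta and for fetal muscle in mice, was at the limit of detection. It had 1 and 1 counts at 4 weeks, 0 and 0 counts at 6 weeks, and 1, 0 and 0 counts at 8 weeks. A count of 0 allows up to 3 counts, which is 0.0804 to 0.0929 CPM in the 6-week libraries. No direction can be read for Rtl1.

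Per length of exon, Rian was the highest over the 7 libraries at 2.15 CPM per kb, followed by Meg3 at 0.823, Mirg at 0.622, Dlk1 at 0.11, Dio3 at 0.0684 and Rtl1 at 0.0018 CPM per kb. Meg3 and Mirg were neighbours within their spread at 4 weeks, at 1.45 ± 0.247 and 1.23 ± 0.332 CPM per kb (SD, n=2 each). At 8 weeks Meg3 was at 0.477 ± 0.0206 and Mirg at 0.31 ± 0.0622 CPM per kb (SD, n=3). With the longest transcript in place of all exons, the order of Meg3 and Mirg turned round (1.02 and 1.19 CPM per kb). Dlk1 and Dio3 overlapped at 8 weeks, at 0.0564 ± 0.00374 and 0.0567 ± 0.0322 CPM per kb (SD, n=3), while at 4 weeks Dlk1 was at 0.212 ± 0.014 and Dio3 at 0.0851 ± 0.046 CPM per kb (SD, n=2 each).

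At 6 against 4 weeks 3 of the 4 tested members were called lower, where 3.85% of all genes tested were. At 8 against 4 weeks 4 of 4 were called lower, where 8.95% of all genes tested were. Called higher were 3.29% of all genes at 6 against 4 weeks and 9.5% at 8 against 4 weeks. The median log2 fold change over all genes tested was −0.01 in both comparisons. With library totals in place of TMM factors that median moved to −0.20 at 8 against 4 weeks and the share of lower calls to 81.8%, against 48.5% with TMM factors, while Rian was at −2.77, Mirg at −2.17, Dlk1 at −2.10 and Meg3 at −1.79. Without 6 weeks replicate 1 Rian kept an adjusted p under 0.05 (highest of all alternatives 0.0245), but Meg3 (0.0598) and Mirg (0.124) did not, and Mirg also lost the call without 4 weeks replicate 2 (0.103). At 8 against 4 weeks all 4 members kept the call in each of 19 alternatives.

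At 8 against 6 weeks 0 of 4 members were called by edgeR, where 0.174% of all genes tested were called in either direction. The values were −0.59 ± 0.123 for Meg3 (adjusted p=0.096), −0.66 ± 0.169 for Rian (0.156) and −0.66 ± 0.223 for Mirg (0.275), each with an unadjusted p under 0.05. Of all 14976 genes tested, 1836 had an unadjusted p under 0.05 in this comparison. Dlk1 was at −0.68 ± 0.397 (0.526), and its direction rested on single libraries, with 0.03 without 6 weeks replicate 2 and −1.13 without 6 weeks replicate 1. DESeq2's Wald test called 2 of them, Meg3 (adjusted p=0.0167) and Rian (0.0187). Whether the early change exceeded the late one was tested as the difference of changes, in which the log2 change between 6 and 8 weeks is subtracted from that between 4 and 6 weeks. No member was called by edgeR (0.0935% of all genes tested were, in either direction). An unadjusted p under 0.05 was found for 1 member and for 1852 of all 14976 genes tested. Rian was at −1.26 ± 0.321 (adjusted p=0.161), and DESeq2's Wald test called it (adjusted p=0.0194). Mirg was at −0.68 and Meg3 at −0.42, while the value of Dlk1, −0.53, ran from −1.97 without 6 weeks replicate 2 to 0.35 without 6 weeks replicate 1.

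**Figure D3:**
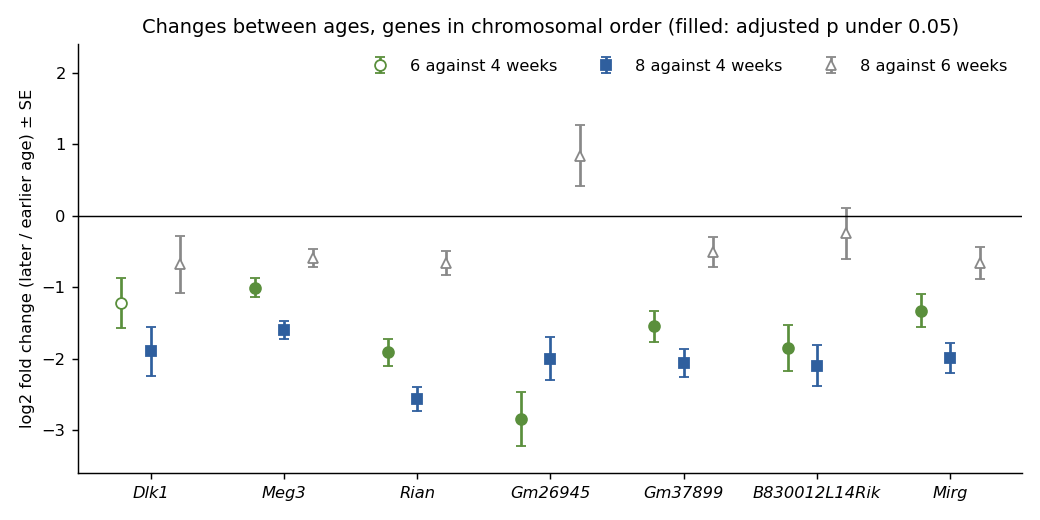
Points give the log2 fold change (later over earlier age) and bars its SE for the 4 tested members and the 3 other tested genes of the region, in the order of the chromosome. Circles stand for 6 against 4 weeks, squares for 8 against 4 weeks and triangles for 8 against 6 weeks, and filled symbols have an adjusted p under 0.05. All circles but that of Dlk1 and all squares are filled, and no triangle is.

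The proportions of the members were compared within each library, where a ratio of counts does not depend on scaling. Rian had 3.28 and 3.58 counts per count of Meg3 at 4 weeks, 1.61 and 2.06 at 6 weeks, and 2.08, 1.47 and 1.75 at 8 weeks. This ratio was higher in each 4-week library than in each other library, while the 6- and 8-week libraries overlapped. The log2 ratio differed by −0.91 between 6 and 4 weeks and by −0.97 between 8 and 4 weeks, each with the smallest p that a 2-sided exact permutation test can give with these n (0.333 and 0.2). The ratio of Rian to Mirg was 10.4 and 9.85 at 4 weeks, 6.64 and 6.84 at 6 weeks, and 4.8 to 9.08 at 8 weeks. Mirg to Meg3 was 0.315 and 0.364 at 4 weeks, 0.243 and 0.301 at 6 weeks, and 0.229 to 0.306 at 8 weeks, so that for both ratios the 4-week libraries were above all others. Dlk1 to Meg3 overlapped between 6 weeks (0.0246 and 0.0521) and 4 weeks (0.0497 and 0.0428). The fifth pair compared was Gm37899, a noncoding gene of the window that is not a member, to Rian. That ratio was 0.0956 and 0.0919 at 4 weeks, 0.125 and 0.117 at 6 weeks, and 0.143, 0.13 and 0.123 at 8 weeks. Of 15 such comparisons over 5 pairs none could reach p under 0.05 in the permutation test, and the lowest adjusted p was 0.555.

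**Figure D4:**
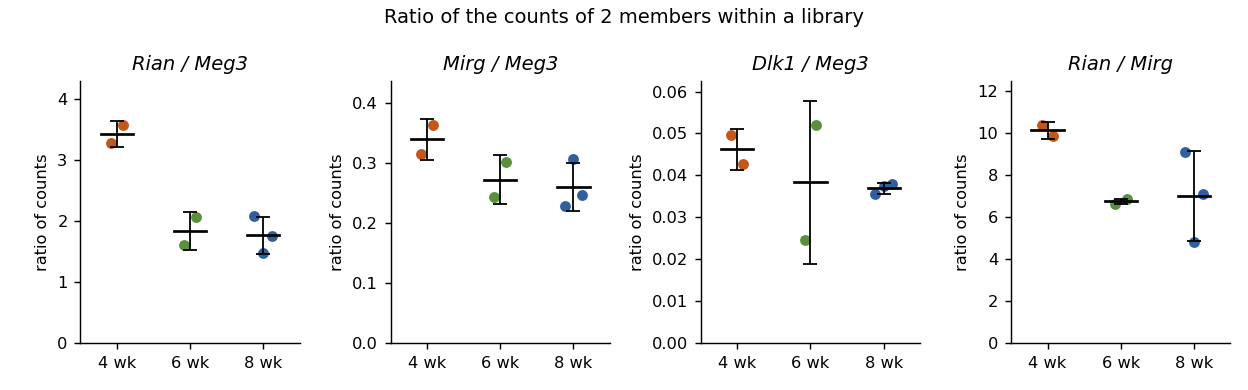
Each point is the ratio of the counts of 2 members in 1 library, with the mean as a horizontal line and the SD as bars, over the 2, 2 and 3 libraries of 4, 6 and 8 weeks. Rian to Meg3 lies above 3.2 in both 4-week libraries and at or below 2.08 in the other 5.

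As a share of the window's counts, Rian took 61.3% (95% Wilson interval 59.9 to 62.7) and 62.3% (61.1 to 63.5) at 4 weeks, 47.9% (45.2 to 50.5) and 52.6% (50.4 to 54.8) at 6 weeks, and 51.7% (48.9 to 54.5), 45% (41.9 to 48.2) and 49.7% (46.5 to 52.9) at 8 weeks. Meg3 took 18.7% and 17.4% at 4 weeks, 29.6% and 25.6% at 6 weeks, and 24.9% to 30.6% at 8 weeks. The share of Rian was higher, and that of Meg3 lower, in each 4-week library than in all others. These intervals cover counting error within a library only, not the spread between mice. The whole window held 123 and 168 CPM at 4 weeks, 42.5 and 52.3 CPM at 6 weeks, and 29.6 to 33.6 CPM at 8 weeks.

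The annotated starts of the members were compared by sequence, because 4 members fell over the same ages. Whether Meg3, Rian and Mirg are transcribed from separate promoters was not tested. Promoters of RefSeq (GRCm38.p6), from 250 bases before to 50 after the start, were found for Dlk1, Meg3, Rian, Mirg and Dio3. They are shown for Meg3 and Rian, whose levels fell most clearly and to a different extent, and for Dio3, for which no difference was detectable. Capitals mark matches on either strand to TATAAA or TGCCGC, of which the second is the core bound by the imprint-keeping protein ZFP57.
Meg3 promoter: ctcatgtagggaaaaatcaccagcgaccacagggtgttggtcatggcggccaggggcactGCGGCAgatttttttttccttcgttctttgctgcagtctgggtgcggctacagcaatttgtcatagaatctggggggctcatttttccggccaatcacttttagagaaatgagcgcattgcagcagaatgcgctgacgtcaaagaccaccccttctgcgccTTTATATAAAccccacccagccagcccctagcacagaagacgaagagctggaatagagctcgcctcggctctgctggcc
Rian promoter: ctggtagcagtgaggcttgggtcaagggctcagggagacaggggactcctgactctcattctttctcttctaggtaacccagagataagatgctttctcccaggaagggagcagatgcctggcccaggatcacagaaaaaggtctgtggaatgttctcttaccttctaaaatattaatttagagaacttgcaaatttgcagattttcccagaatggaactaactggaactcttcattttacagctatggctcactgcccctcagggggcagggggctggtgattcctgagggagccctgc
Dio3 promoter: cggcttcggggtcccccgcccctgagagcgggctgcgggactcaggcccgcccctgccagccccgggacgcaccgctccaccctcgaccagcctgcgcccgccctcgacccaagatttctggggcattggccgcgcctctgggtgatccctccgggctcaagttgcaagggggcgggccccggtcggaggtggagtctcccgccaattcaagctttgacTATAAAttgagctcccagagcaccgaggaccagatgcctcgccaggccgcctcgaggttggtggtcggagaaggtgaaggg
The Meg3 promoter is chr12:109540746-109541045, the Rian promoter chr12:109603695-109603994 and the Dio3 promoter chr12:110278980-110279279, all on the plus strand.

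The Meg3 promoter held TATAAA on both strands in overlapping positions, starting at base −29 from the start, and TGCCGC on the minus strand at base −190. The Dio3 promoter held TATAAA at base −31. The Rian, Dlk1 and Mirg promoters held neither, nor did that of a second RefSeq start of Meg3, which had 1 CG. Among 32817 promoters of the same length, 13.6% held TATAAA and 11.6% TGCCGC. None of the members' promoters that were found held CAGCTG (16.3% of all), CACGTG (7.15%) or the motif of the muscle factor MEF2 (3.19%). For Rtl1 no promoter was found. The promoters differed in CG dinucleotides, with 0 in Rian, 9 in Dlk1, 10 in Mirg, 13 in Meg3 and 25 in Dio3, against a median of 7. The starts that RefSeq gives for Mirg and Dio3 lie inside the GENCODE genes, and that for Rian lies close to the GENCODE start. These matches are a description of the letters only.

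Besides the members, 98 symbols of the window were in the table, of which 3 were tested, all noncoding genes on the plus strand between the start of Rian and Mirg. Gm26945 lies within the span of Rian, and had 1.99 and 2.4 CPM at 4 weeks, 0.31 and 0.295 CPM at 6 weeks, and 0.701, 0.277 and 0.642 CPM at 8 weeks. It fell at 6 against 4 weeks (log2 fold change −2.85 ± 0.375, adjusted p=0.00389 in edgeR) and at 8 against 4 weeks (−2.0 ± 0.3, adjusted p=0.00142). Its 6-week libraries lay near the bottom of the 8-week range, and its difference of changes was −3.69 with an adjusted p of 0.0935.

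Gm37899, a model of 1 exon between Rian and the miRNA cluster, had 7.22 and 9.66 CPM at 4 weeks, 2.54 and 3.22 CPM at 6 weeks, and 2.48, 1.72 and 1.83 CPM at 8 weeks. It fell at 6 against 4 weeks (−1.55 ± 0.216 on the log2 scale, adjusted p=0.00514 in edgeR) and at 8 against 4 weeks (−2.06 ± 0.196, adjusted p=0.000155). B830012L14Rik had 1.73 and 2.96 CPM at 4 weeks, 0.681 and 0.617 CPM at 6 weeks, and 0.593, 0.616 and 0.417 CPM at 8 weeks. It fell at 6 against 4 weeks (−1.85 ± 0.318, adjusted p=0.0102) and at 8 against 4 weeks (−2.10 ± 0.289, adjusted p=0.000977). For all 3 the 4-week libraries lay above every later library, and for how many of all genes tested they do was not counted. Their functions are not annotated in the files.

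The short RNAs of the region were too thinly covered for single tests. Libraries of this kind hold long RNA fragments, and mature miRNAs were not measured. The 59 miRNA hairpins on the plus strand summed to 127 and 191 counts at 4 weeks, 48 and 62 counts at 6 weeks, and 39, 35 and 29 counts at 8 weeks. On the CPM scale they were at 4.23 ± 1.22 at 4 weeks, 1.57 ± 0.125 at 6 weeks and 1.02 ± 0.0786 at 8 weeks (SD), so that the mean at 8 weeks was 0.241 of that at 4 weeks. Of the 59, 46 had a lower mean at 8 than at 4 weeks, 6 a higher one and 7 the same, which is 0. No hairpin had more than 13 counts in a library. The share of lower means over other symbols with so few counts was not counted. Neighbours on 1 strand need not be separate observations. The 8 hairpins on the minus strand summed to 5 counts in all libraries together.

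The 23 small nucleolar RNAs, guides for the chemical modification of other RNAs, summed to 61 and 72 counts at 4 weeks, 30 and 25 counts at 6 weeks, and 22, 7 and 7 counts at 8 weeks. Their summed level was 1.77 ± 0.213 CPM at 4 weeks, 0.799 ± 0.183 CPM at 6 weeks and 0.345 ± 0.216 CPM at 8 weeks (SD). For both classes the 3 ages did not overlap. Of 10 small nucleolar RNAs that lie wholly in exons of another gene on the strand, 1 had any count, against 13 of the 13 others. For hairpins these numbers were 1 of 8 and 54 of 59. Such overlap makes a read ambiguous in the counting that was used.

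**Figure D5:**
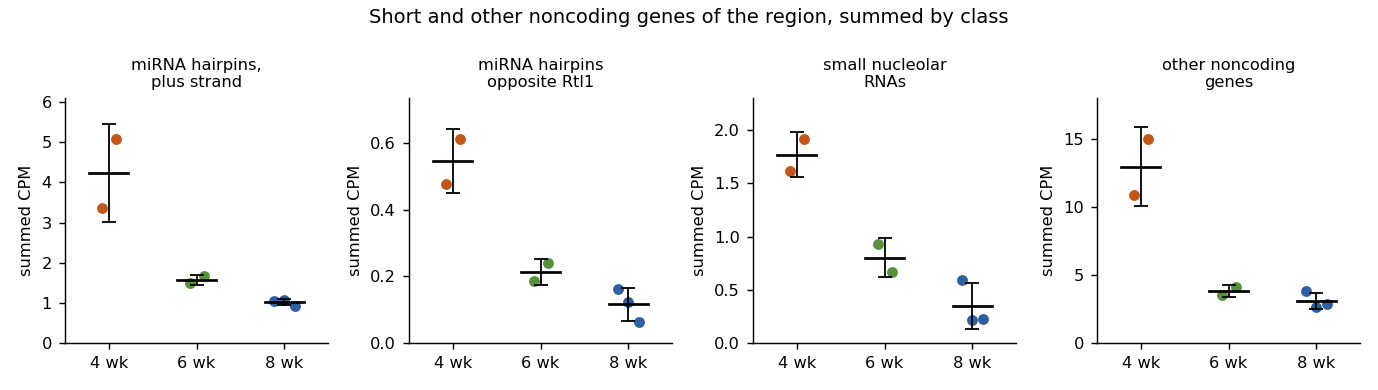
Each point is the CPM of 1 library summed over the genes of a class, with the mean as a horizontal line and the SD as bars, over the 2, 2 and 3 libraries of 4, 6 and 8 weeks. In each class both 4-week libraries lie above all later ones. The classes are the 59 miRNA hairpins of the plus strand, the 6 of these opposite Rtl1, the 23 small nucleolar RNAs and the 5 other noncoding genes with a row in the table.

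The hairpins opposite Rtl1 carry the closest sequence link between members of the region, since their mature miRNAs are read from the other strand of the Rtl1 coding sequence and can pair with it over their whole length. In the RefSeq miRNAs of the window, 11 mature miRNAs from 6 hairpins were found as exact complements of the Rtl1 transcript, all 11 in its coding part. For each hairpin the 3p arm, or the only one, is shown, with the seed (bases 2 to 8) in capitals.
mmu-miR-431-3p: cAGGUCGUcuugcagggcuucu
mmu-miR-433-3p: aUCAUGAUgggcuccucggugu
mmu-miR-127-3p: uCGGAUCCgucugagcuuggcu
mmu-miR-434-3p: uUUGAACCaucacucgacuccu
mmu-miR-432: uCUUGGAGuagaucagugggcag
mmu-miR-136-3p: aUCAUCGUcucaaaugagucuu
These 6 hairpins lie between chr12:109590447 and chr12:109595388 on the plus strand of GRCm38.

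Together these 6 hairpins had 18 and 23 counts at 4 weeks, 6 and 9 counts at 6 weeks, and 6, 4 and 2 counts at 8 weeks, and in CPM the ages did not overlap. Mir433, the best covered, had 6 and 7 counts at 4 weeks, 1 and 4 counts at 6 weeks, and 4, 2 and 1 counts at 8 weeks. Mir432 had 5 and 7 counts at 4 weeks, 5 and 0 counts at 6 weeks, and none at 8 weeks. All 6 had a lower mean CPM at 8 than at 4 weeks, without a count of such symbols elsewhere to set beside it. The Rtl1 transcript on the other strand had 3 counts in the 7 libraries.

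The miRNAs from Mir379 onward form the large cluster that ends in Mirg. Among 114 mature miRNAs of the window there were 104 different seeds, and 10 seeds were shared by 2 hairpins. The following pairs share a seed and are examples from this cluster, which holds further shared seeds.
mmu-miR-379-5p: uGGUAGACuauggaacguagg
mmu-miR-1193-5p: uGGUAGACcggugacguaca
mmu-miR-379-3p: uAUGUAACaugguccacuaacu
mmu-miR-411-3p: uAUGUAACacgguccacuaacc
The 25 hairpins from Mir379 to the start of Mirg summed to 53 and 94 counts at 4 weeks, 23 and 29 counts at 6 weeks, and 20, 17 and 18 counts at 8 weeks. The 14 within the span of Mirg summed to 22 and 27 counts at 4 weeks, 1 and 8 counts at 6 weeks, and 3, 8 and 5 counts at 8 weeks. Mir1193 had 6 and 6 counts at 4 weeks, 2 and 1 counts at 6 weeks, and 1, 0 and 2 counts at 8 weeks.

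The protein-coding genes on both sides of the region moved in both directions or were not called. Of the 10 nearest tested protein-coding genes before Dlk1, Ccnk to Wdr25, 1 was higher and 0 lower at 6 against 4 weeks, with a median log2 fold change of 0.00. Of the 10 after Dio3, Ppp2r5c to Rcor1, 0 were higher and 0 lower by edgeR. In that comparison 3.29% of all genes tested were higher and 3.85% lower. Ccnk, a cyclin of transcription, was higher at 8 against 4 weeks (1.32 ± 0.23, adjusted p=0.00329), as were Ccdc85c (0.92) and the transcription factor Yy1 (0.54), and the actin regulator Evl was lower (−0.89). On the other side the dynein chain Dync1h1 was higher (0.49), and the chaperone Hsp90aa1 (−0.79) and Cinp (−0.43) were lower. Every tested member and every other tested gene of the region lay below the lowest of these 20 flanking values, which was −0.89. No test of the difference between region and flanks was made.

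Other imprinted genes were given by a list of 34, of which 28 were tested. At 6 against 4 weeks 9 were lower and 2 higher, and at 8 against 4 weeks 12 were lower and 5 higher. Of all genes tested, 3.85% and 8.95% were lower in these comparisons and 3.29% and 9.5% higher. The list's median log2 fold change at 8 against 4 weeks was −0.32, against −0.01 over all genes tested. H19, the noncoding RNA of the Igf2 locus, was at −2.99 ± 0.153 (adjusted p=6.94e-06), the growth factor Igf2 at −2.47, the cyclin-dependent kinase inhibitor Cdkn1c at −2.33 and Mest at −1.97. Peg13, Trappc9, Asb4 and Snrpn were higher, at 0.71, 0.52, 0.60 and 0.60. At 8 against 6 weeks H19 fell too (−1.93, adjusted p=0.000311), and was the only one of the 28 called.

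Over the 7 libraries, Igf2 had the profile most like that of Rian among 11800 genes with a mean of at least 1 CPM, with a root mean square difference of 0.103 in centered log2 CPM, followed by C1qtnf3 (0.121) and Postn (0.179). The profile of Rian itself had an SD of 1.091. For Mirg the nearest were Adam12 (0.123), Mest (0.182) and Adamts20 (0.217), and Meg3 came next at rank 4. For Meg3 they were Maged2 (0.113), Itm2a (0.143) and S100a11 (0.15), with Mirg at rank 30. For Dlk1 they were Tlcd2 (0.18), Adam12 (0.204) and Sap30 (0.208), with Mirg at rank 11 and Meg3 at rank 22. Rian was at rank 51 for Mirg and at rank 754 for Meg3. Counted from Rian, the same differences (0.366 and 0.461) put Mirg at rank 16 and Meg3 at rank 32. The difference also grows with unequal size of change, and the profile of Meg3 had an SD of 0.664. These ranks are a description over 7 libraries, in which every gene shares the depth and the scaling factor of the library.

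Genes of imprint upkeep, a list that also holds demethylases, were followed because the control element of the region carries DNA methylation. Of 12 tested, 0 were higher and 1 was lower at 6 against 4 weeks by edgeR. At 8 against 4 weeks 0 were higher and 4 lower, the demethylases Tet1 and Tet2 among them. Of all genes tested, 3.85% and 8.95% were lower in these comparisons and 3.29% and 9.5% higher. Uhrf1, which brings the maintenance methyltransferase to replicated DNA, averaged 0.812 ± 0.0216 CPM at 4 weeks, 0.2 ± 0.0203 CPM at 6 weeks and 0.142 ± 0.102 CPM at 8 weeks (SD). It fell in both comparisons, with log2 fold changes of −1.99 (adjusted p=0.0272) and −2.51 (adjusted p=0.0032). Zfp57 (−1.44, adjusted p=0.0248) and the demethylases Tet1 (−0.62) and Tet2 (−0.66) fell at 8 against 4 weeks. The methyltransferases Dnmt1 (−0.15), Dnmt3a (0.06) and Dnmt3b (−0.03) and the insulator protein Ctcf (0.11) were not called at 8 against 4 weeks. The list's median in that comparison was 0.02.

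Of the Polycomb complex, which binds some noncoding RNAs, Ezh1 was higher at 8 against 4 weeks (0.61, adjusted p=0.00376) and the other 6 of 7 were not called. Of 3 tested Mef2 factors, which activate the region's noncoding genes in mouse muscle, Mef2d was higher at 6 against 4 weeks (0.69, adjusted p=0.0329) and at 8 against 4 weeks (0.56, adjusted p=0.0295). Of 9 tested genes that, like Rtl1, derive from a retrotransposon gag gene, none was called in any comparison by edgeR. Beside these counts, 3.29% of all genes tested were higher and 3.85% lower at 6 against 4 weeks. At 8 against 4 weeks 9.5% were higher and 8.95% lower.

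For Dlk1, genes of the Notch pathway were followed. Of 16 tested, 0 were higher and 1 was lower at 6 against 4 weeks, and 1 was higher and 1 lower at 8 against 4 weeks, with a median log2 fold change of 0.03. The ligand Dll4 was higher at 8 weeks (0.52, adjusted p=0.0413), the regulator Hes6 lower (−0.97, adjusted p=0.0131), and the target Heyl lower at 6 weeks (−0.73, adjusted p=0.0366). For Dio3, 15 genes of thyroid hormone transport, activation and reception were tested. At 6 against 4 weeks 3 were higher and 0 lower, and at 8 against 4 weeks 6 were higher and 1 lower, with a median of 0.29. Over all genes tested 3.29% and 9.5% were higher in these comparisons and 3.85% and 8.95% lower. The receptor Thrb averaged 16.5 ± 0.508 CPM at 4 weeks, 24.0 ± 1.17 CPM at 6 weeks and 30.4 ± 1.5 CPM at 8 weeks (SD), and its log2 fold changes were 0.54 (adjusted p=0.0165) and 0.89 (adjusted p=0.000359). Its partner Rxra was at 0.83 and the receptor Thra at 0.46 at 8 against 4 weeks, while the amino acid and hormone transporter subunit Slc7a5 was at −1.05. The activating deiodinase Dio2 had 4.09 and 3.33 CPM at 4 weeks, 2.82 and 2.41 CPM at 6 weeks, and 3.37, 2.62 and 2.47 CPM at 8 weeks, and was not called.

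Of 10 genes known to respond to thyroid hormone, 1 was higher at 6 against 4 weeks, and 4 were higher and 1 lower at 8 against 4 weeks, beside the same shares over all genes (9.5% higher and 8.95% lower at 8 against 4 weeks). Malic enzyme Me1 was at 0.75 and 0.88 in these comparisons, Klf9 at 0.38 and Slc2a4 at 0.44 at 8 against 4 weeks, and Thrsp was lower (−0.95).

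Markers of several cell types moved with age in the same libraries as the members, and their part in the result was not tested. The 7 markers of dividing cells summed to 10.5 and 20.1 CPM at 4 weeks, 2.01 and 3.0 CPM at 6 weeks, and 3.05 to 3.99 CPM at 8 weeks. Mki67 alone had 4.3 and 8.4 CPM at 4 weeks. The library with the higher value was also the higher one for Dlk1, Meg3, Rian and Mirg, an order that carries little weight with 2 libraries. The same held at 6 weeks, where Mki67 had 0.557 and 1.05 CPM. At 8 weeks Mki67 had 1.91, 1.36 and 1.48 CPM. There replicate 1 was also the highest for Rian (17.4 CPM), but the lowest for Dlk1 (0.297), Meg3 (8.36) and Mirg (1.91). Of the 6 dividing cell markers tested, 4 were lower at 6 and 6 at 8 against 4 weeks, where 3.85% and 8.95% of all genes tested were. The 10 markers of satellite cells and myoblasts summed to 41.2 and 45.7 CPM at 4 weeks, 35.3 and 36.1 CPM at 6 weeks, and 27.4 to 31.2 CPM at 8 weeks, and 4 of 10 were lower at 8 against 4 weeks. The myogenic factor Myog was among these (−2.03, adjusted p=0.000975), while the satellite cell marker Pax7 had 1.99 and 1.87 CPM at 4 weeks, 2.01 and 1.85 CPM at 6 weeks, and 1.7, 2.46 and 1.67 CPM at 8 weeks.

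Lower calls at 8 against 4 weeks also numbered 4 of 8 for fibro-adipogenic progenitors, 4 of 7 for endothelial cells with 2 higher, 1 of 6 for macrophages, 2 of 6 for Schwann cells and nerve, 2 of 5 for tenocytes and 5 of 6 for red blood cells. The tendon gene Tnmd was at −1.63. Of the 8 adipocyte markers, 1 was higher and 0 were lower at 8 against 4 weeks. Slow fiber markers summed to 332 and 425 CPM at 4 weeks, 428 and 414 CPM at 6 weeks, and 224 to 378 CPM at 8 weeks, with 2 of 6 lower at 8 against 4 weeks, and of the 7 muscle fiber markers 1 was lower. Of all genes tested, 8.95% were lower and 9.5% higher at 8 against 4 weeks, and in lists this short a single call lies near these shares. None of these lists had a marker at 0 in all libraries.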

How the data were processed

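RNA was measured in 7 libraries of gastrocnemius, 1 per mouse. Reads had been trimmed (Trimmomatic), mapped (STAR, GRCm38) and summed over the exons of each gene name on the transcribed strand (featureCounts) by the authors. The deposited counts per gene symbol were used, with no normalization by the authors. Sheets with the authors' own comparisons, normalized values and pathways were not used. Depth was 30836057 to 41784144 counts per library, which limits values of low genes such as Dio3 and Rtl1.

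For the main test, filterByExpr of edgeR 4.0.16 (R 4.3.3) kept 14976 of 49568 symbols at a minimum count of 10. All 7 libraries entered a single quasi-likelihood fit (glmQLFit, legacy off) with age as the only factor and TMM scaling. The fit left 4 residual degrees of freedom, and the common dispersion was 0.0141. A gene was called at a Benjamini-Hochberg adjusted p under 0.05, taken over every gene tested. The standard error is the log2 fold change divided by the square root of F. Profiles used log2 CPM with a prior count of 2. DESeq2 1.42.0 and limma 3.58.1 (voom) served as alternatives, beside other scaling, filters, a replicate block and each library left out. The code was tested on simulated data. Ratios between members, and of Gm37899 to Rian, were compared by exact permutation tests in scipy 1.17.1. Figures were drawn with matplotlib 3.10.9 in Python 3.11.15. Genes were placed with GENCODE M21, where 47214 of 49568 symbols had a gene of that name; sequences are from RefSeq (GRCm38.p6).

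The members and the gene lists were chosen with earlier results of these data known. Named were all members, all other tested genes of the window from 10 kb before Dlk1 to 10 kb after Dio3, the 10 nearest tested protein-coding genes on each side, up to 4 higher and 4 lower genes with the smallest p from each list, and the 3 genes with the profile nearest to each tested member. Short RNAs named were chosen after their values were seen, as were further genes of the lists.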

Additional observations from a re-analysis of the deposited data

How the results depend on the processing

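In 300 recomputed log2 fold changes of the 4 tested members over 19 alternatives, 288 kept their direction and their side of the threshold, 4 lost and 6 gained a call, and 2 changed sign. Both sign changes were of Dlk1 and without a call. Its value at 8 against 6 weeks was −1.13 to 0.03 without 1 library (0.03 without 6 weeks replicate 2), and its difference of changes was −1.97 to 0.35 (0.35 without 6 weeks replicate 1). At 6 against 4 weeks, leaving out each library gave 1 to 4 members called, and no filter on low counts gave 2 (Mirg, adjusted p=0.0513). At 8 against 4 weeks all alternatives gave 4. At 8 against 6 weeks 1 member was called with library totals and 2 with DESeq2's Wald test, and for the difference of changes 1 with DESeq2's Wald test; the cause was not tested. With the replicate number as a block, 4 members were called at 6 against 4 weeks (Dlk1, adjusted p=0.047), and 4, 0 and 0 in the other comparisons. The numbers do not pair the mice, since same-numbered libraries correlated by −0.0927 to 0.0428 after removal of the age means. The edgeR 3 form of the quasi-likelihood and the exon bases shared with no other gene were chosen as alternatives after seeing the data, and neither changed a call or the order of levels. Over all genes, calls at 6 against 4 weeks numbered 1070, against 580 with library totals, 203 with no filter, 1885 with only the ages compared and 42 to 1617 without 1 library. At 8 against 4 weeks they numbered 2763, against 1777 with no filter and 810 to 2553 without 1 library. At 8 against 6 weeks they numbered 26, against 44 with DESeq2 size factors, 55 with upper quartile factors, 95 with library totals, 161 with DESeq2's Wald test, 46 without the 10 most abundant genes, 8 with no filter, 124 with the replicate block and 9 to 77 without 1 library. For the difference of changes they numbered 14, against 29 with upper quartile factors, 41 with library totals, 144 with DESeq2's Wald test, 23 with robust edgeR, 26 without the 10 most abundant genes, 2 with no filter, 199 with the replicate block and 4 to 137 without 1 library. With library totals the share of lower calls was 96.8% at 8 against 6 weeks (84.6% with TMM factors) and 4.88% for the difference of changes (28.6% with TMM factors). With 2 or 3 mice per age, few counts limit what can be seen for Dlk1, and more so for Dio3 and Rtl1.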
